A study of Mus musculus with 16 samples.

Results

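Ms4a8a, Tcf15, Nptx1, Cuzd1, Unc93a2 and Arl4d are 6 genes whose transcript levels were far higher in mouse endometrial epithelial organoids after estradiol (E2) with medroxyprogesterone acetate (MPA, a synthetic progestin) than after vehicle. They are 6 of 23306 genes in the table and were found by matching Ensembl identifiers to gene symbols. They were selected on the measured values described here, for a large rise under E2/MPA in these same libraries. The size of that rise is therefore a description, with no test. The comparisons tested are those of the 2 genotypes. Several of the genes were taken from the largest rises of 1 genotype, which can favour that genotype, so the direction shared by the 6 genes was not tested either.

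The organoids, 3-dimensional cultures grown from the epithelial layer that lines the uterus, were measured by RNA sequencing in 16 libraries, 4 per group. The cKO E2/MPA libraries (M13 to M16) and cKO vehicle libraries (M5 to M8) came from mice with floxed Tgfbr2 and PR-Cre, a recombinase driven from the progesterone receptor locus and so made only in cells that express this receptor. The control E2/MPA libraries (M9 to M12) and control vehicle libraries (M1 to M4) came from mice with floxed Tgfbr2 and no Cre. Both genotypes thus carried the floxed alleles, and the effect of the deletion and that of Cre itself cannot be told apart. All organoids grew for 2 days, then received vehicle for 6 days, or 10 nM E2 for 2 days followed by 10 nM E2 with 1 µM MPA for 4 days. The libraries with hormone received both agents, so an effect of E2 and one of MPA cannot be told apart. Separate animals or cultures are not named for the libraries, so a p-value weighs a difference against the scatter of the samples, and that scatter may be technical.

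In the uterine epithelium, estradiol acts through estrogen receptor alpha and progestins through the progesterone receptor, both ligand-activated transcription factors that bind DNA and raise or lower target genes. MPA also binds the glucocorticoid receptor, which recognises the same DNA element as the progesterone receptor. TGFBR2 is the receptor subunit that binds TGF-beta ligands and starts SMAD signalling. The 6 genes have unlike products. Cuzd1 encodes a CUB and zona pellucida-like domain protein, known in the mouse as an estrogen-regulated uterine gene and from pancreas and mammary gland. Nptx1 encodes neuronal pentraxin 1, a secreted protein that clusters AMPA receptors at synapses. Ms4a8a belongs to the MS4A family of membrane proteins that cross the membrane 4 times, and its human counterpart MS4A8 is known from ciliated cells. Unc93a2 is a relative of the UNC93 family of multi-pass membrane proteins. Arl4d encodes a small GTPase of the ARF-like family that recruits cytohesins to the plasma membrane. Tcf15, also called paraxis, encodes a basic helix-loop-helix (bHLH) transcription factor known from somite formation in the mouse.

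Promoter windows of 250 bases before to 50 bases after the gene start were found for 4 of the 6 genes, Ms4a8a, Cuzd1, Unc93a2 and Arl4d, in RefSeq on GRCm38.p6. The 3 windows below are shown because they are the 2 that hold a hormone receptor half-site and the 1 that differs most from them in base composition. They are written 5′ to 3′ on the gene's strand. Capitals mark AGAACA (the half-site of the progesterone and glucocorticoid receptor element) and AGGTCA or its complement TGACCT (the half-site of the estrogen receptor element).
Ms4a8a: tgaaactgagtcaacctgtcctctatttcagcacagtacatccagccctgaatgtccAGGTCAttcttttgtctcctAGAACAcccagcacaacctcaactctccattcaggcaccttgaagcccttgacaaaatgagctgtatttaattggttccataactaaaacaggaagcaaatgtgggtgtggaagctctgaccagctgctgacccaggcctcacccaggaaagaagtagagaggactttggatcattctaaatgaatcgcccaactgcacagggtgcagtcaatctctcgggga
Cuzd1: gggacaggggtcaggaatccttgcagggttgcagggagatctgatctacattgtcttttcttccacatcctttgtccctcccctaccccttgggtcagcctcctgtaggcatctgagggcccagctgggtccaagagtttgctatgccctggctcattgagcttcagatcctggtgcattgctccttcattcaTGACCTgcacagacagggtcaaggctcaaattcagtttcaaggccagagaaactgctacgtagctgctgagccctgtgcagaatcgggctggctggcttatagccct
Arl4d: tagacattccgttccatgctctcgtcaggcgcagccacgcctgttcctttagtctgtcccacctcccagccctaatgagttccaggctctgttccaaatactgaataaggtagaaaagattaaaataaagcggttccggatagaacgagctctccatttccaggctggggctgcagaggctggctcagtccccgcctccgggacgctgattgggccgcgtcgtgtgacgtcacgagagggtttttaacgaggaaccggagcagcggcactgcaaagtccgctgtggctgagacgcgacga
The Ms4a8a window lies at chr19:11081054-11081353 on the minus strand, the Cuzd1 window at chr7:131322243-131322542 on the minus strand and the Arl4d window at chr11:101665291-101665590 on the plus strand. Ms4a8a had AGAACA at positions -173 to -168 and AGGTCA at -193 to -188, counted from the gene start. Cuzd1 had TGACCT at -57 to -52. Arl4d had neither half-site, nor did Unc93a2. On both strands together, AGAACA occurs in 19.0% of 32851 promoter windows of this length and AGGTCA in 16.3%. The full palindromes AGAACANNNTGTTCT (in 0.00913% of windows) and GGTCANNNTGACC (in 0.0700%), each of which holds a half-site or most of it, were in none of the 4 windows. The E-box CANNTG, the element bHLH factors bind, occurred 3 times in the Ms4a8a window, 2 times in Cuzd1, 2 times in Unc93a2 and not in Arl4d, beside 72.3% of all windows with at least 1. The variant CATATG, found in 3.91% of windows, and TATAAA, found in 13.6%, were in none of the 4. The Arl4d window held 22 CpG dinucleotides, against 2 in Ms4a8a, 2 in Cuzd1, 5 in Unc93a2 and a median of 7 over all windows. These letters are a description of the windows and not of binding.

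Depth ranged from 14372111 to 20016836 reads per library, with ranges that overlapped among the 4 groups. Levels are normalized counts, that is, reads divided by a size factor per library, and 1 read was worth about 1 normalized count. The Tgfbr2 count averaged 4326 ± 849.6 in cKO E2/MPA, against 5356 ± 1685 in control E2/MPA, and 4325 ± 811 in cKO vehicle, against 6014 ± 1467 in control vehicle (SD, n = 4 each). Neither difference passed limma's test with Benjamini-Hochberg adjustment (adjusted p = 0.690 under E2/MPA and 0.833 under vehicle), so the labelled genotype was not seen in the gene-level count. A gene-level count sums all exons and cannot show the loss of a floxed exon alone. All 9 epithelial markers were present in every group, with a summed level of 147472 to 195655 in cKO E2/MPA, 154369 to 192884 in cKO vehicle. In control organoids it was 128043 to 174682 with E2/MPA and 127322 to 203269 with vehicle. In all, 4 libraries, M16, M8, M12 and M4, 1 in each group, stood apart by stromal markers such as Col1a1 and Col3a1. The sum of the 9 stromal markers was 33913 in M16, 18643 in M8, 40030 in M12 and 47818 in M4. It was 17623 in M9, 10505 in M1 and between 777 and 3801 in the other 10 libraries. The same 4 libraries had the highest epithelial sum of their group, so this sum was not reduced in them. The macrophage markers summed to 20408 in M12 and 15166 in M4, against 1918 to 4803 elsewhere.

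All 6 genes were lower in every vehicle library than in any E2/MPA library of the same genotype, in cKO and in control organoids. Among the 16509 genes tested, 8.01% in cKO and 6.66% in control had every E2/MPA library above every vehicle library. The selection used this contrast, so nothing is read from the counts. On the log2(count + 1) scale the rises ranked 3 to 11 of 16509 in cKO and 2 to 15 in control. In bulk RNA, more cells that make a transcript and more transcript per cell cannot be told apart.

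Cuzd1 had the highest level per kilobase of exon of the 6 genes in every group. In cKO organoids it had 7681, 5841, 8292 and 998 normalized counts in the E2/MPA libraries M13 to M16, against 97.6, 128, 222 and 11.7 in the vehicle libraries M5 to M8. In control organoids it had 7127, 20188, 20888 and 959 in M9 to M12, against 49.9, 797, 687 and 3.20 in M1 to M4. The lowest hormone library of each genotype was the one with the highest stromal sum, and the same held for the lowest vehicle library. The E2/MPA mean was 49.6 times the vehicle mean in cKO and 32.0 times in control. The gap between the groups was narrow in control: M12 was 1.20 times M2, the highest vehicle library. In cKO the same margin was 4.49. Cuzd1 was thus transcribed under vehicle, in M5 to M7 as well as in M2 and M3, and "switched on" describes it poorly.

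Nptx1 followed the same course at a lower level per kilobase. The cKO organoids had 1425, 1442, 1720.0 and 55.9 normalized counts in M13 to M16, against 7.85, 29.4, 15.8 and 0.837 in M5 to M8. Control organoids had 1622, 6636, 5449 and 320.0 in M9 to M12, against 3.91, 256, 134 and 0.800 in M1 to M4. M16 and M12 were again far below the other hormone libraries, and of the control vehicle libraries M2 and M3 were far above M1 and M4. The E2/MPA mean was 86.2 times the vehicle mean in cKO and 35.5 times in control. The lowest hormone library exceeded the highest vehicle library by 1.90 times in cKO and 1.25 times in control.

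Of the membrane proteins, Ms4a8a went furthest relative to its vehicle level. In cKO organoids it had 171, 374, 246 and 12.9 normalized counts in M13 to M16, against 1.12, 0.840, 1.13 and 0 in M5 to M8. The control organoids had 367, 1393, 1520.3 and 73.7 in M9 to M12, against 1.96, 1.13, 0.818 and 0 in M1 to M4. Vehicle levels rested on 3 reads over the 4 cKO libraries and 4 reads over the 4 control libraries. The ratio of means was therefore 260.3 in cKO, with a counting interval of 99.7 to 1420.3, and 859 in control, with an interval of 384 to 3613. These 95% intervals cover counting error only. Even M16, the lowest hormone library, was 11.4 times the highest cKO vehicle library. The ciliated-cell markers, 6 of 8 of which were in the table, summed to 54.7 to 79.6 in cKO E2/MPA, 60.6 to 83.7 in cKO vehicle. In control organoids their sum was 75.9 to 123 with E2/MPA and 61.6 to 125 with vehicle. Foxj1, the master factor of ciliated cells, averaged 2.91 ± 2.74 in cKO E2/MPA and 5.46 ± 3.75 in cKO vehicle, and 4.34 ± 3.48 in control E2/MPA and 12.9 ± 9.64 in control vehicle (SD, n = 4 each).

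Unc93a2 had the smallest ratio of highest to lowest hormone library in both genotypes. In cKO the counts were 71.4, 181, 132 and 46.2 (normalized) in M13 to M16, against 0, 1.68, 3.39 and 0 in M5 to M8. In control the counts were 257, 232, 356 and 107 in M9 to M12, against 0, 6.77, 9.00 and 0.800 in M1 to M4. The ratio of means was 84.9 in cKO (counting interval 39.7 to 289, on 5 vehicle reads) and 57.5 in control. Its level is uncertain, because 56.5% of the 50-base words of its transcripts also occur in transcripts of other genes, 49.7% in Unc93a alone. In addition, 451 exon bases are shared with the predicted gene Gm49630 on the same strand. The other 5 genes shared no 50-base word with another gene's transcripts.

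Arl4d, the small GTPase, had a low level in all 8 vehicle libraries. The normalized counts in cKO organoids were 349.8, 110.1, 311 and 74.2 in M13 to M16, against 2.24, 2.52, 6.78 and 2.51 in M5 to M8. For control organoids they were 203, 492, 559 and 70.4 in M9 to M12, against 2.93, 2.26, 1.64 and 8.00 in M1 to M4. Its vehicle level was highest in M4, unlike that of Cuzd1 and Nptx1, which were lowest there. The E2/MPA mean was 60.2 times the vehicle mean in cKO and 89.3 times in control, and the lowest hormone library exceeded the highest vehicle library by 10.9 times in cKO and 8.80 times in control.

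Tcf15, the transcription factor, alone of the 6 had no read in any cKO vehicle library. In cKO organoids it had 36.9, 119, 20.5 and 23.7 normalized counts in M13 to M16, against 0 in each of M5 to M8. In control organoids it had 128, 270.0, 245 and 64.9 in M9 to M12, against 0, 0, 0.818 and 0.800 in M1 to M4. With a floor of 3 reads over the 4 libraries in place of 0, the cKO hormone mean was at least 69.4-fold higher than the vehicle level, and the lowest hormone library at least 28.5-fold higher. In control the ratio of means was 438, with a counting interval of 111 to 3334 on 2 vehicle reads.

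**Figure D1:**
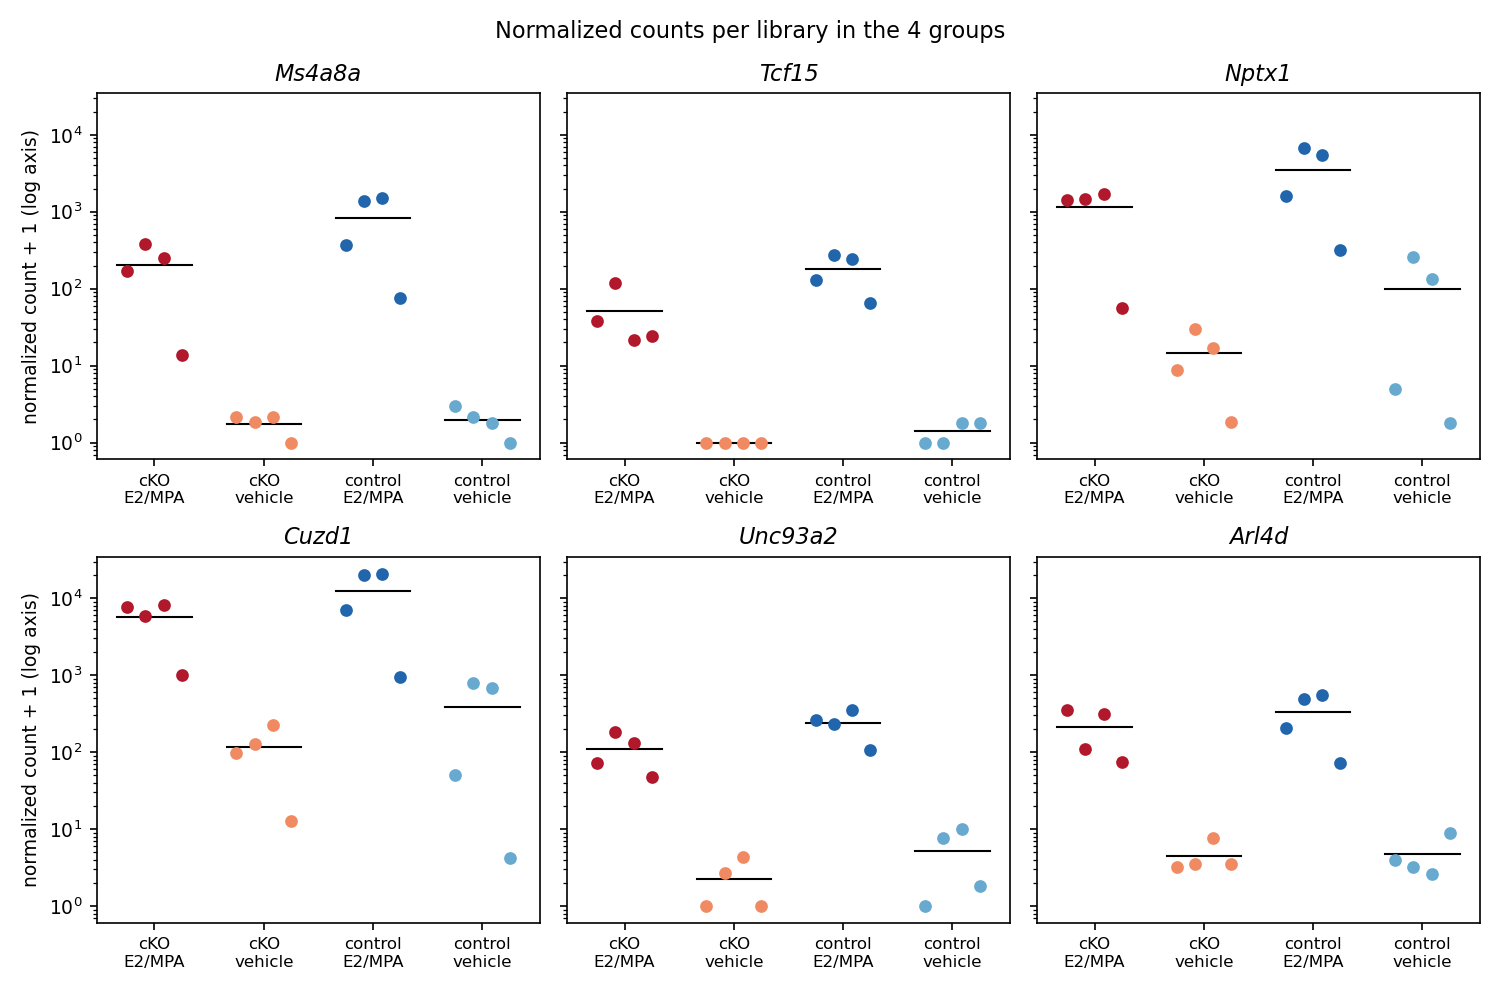
Normalized count plus 1 on a log axis for each of the 6 genes. Each point is 1 library (4 per group, in number order within a group) and each bar the group mean. The vehicle points of Nptx1 and Cuzd1 spread over more than 2 decades in control, while those of Ms4a8a, Tcf15, Unc93a2 and Arl4d stay at or below 9.00 in both genotypes.

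The order of the hormone libraries was similar from gene to gene. Ranked from 1 (highest) to 8 within each gene, M11 had a mean rank of 1.33 and M10 of 1.83, followed by M9 at 3.83. M14 and M15 both had 4.67 and M13 had 5.33, while M12 had 6.83 and M16 had 7.50. Within control E2/MPA, M12 was the lowest library for all 6 genes. Within cKO E2/MPA, M16 was the lowest for all but Tcf15, which was lowest in M15.

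The width of the spread set the genes apart. In cKO E2/MPA the highest library exceeded the lowest by 30.8 times for Nptx1, 29.0 times for Ms4a8a, 8.31 times for Cuzd1, 5.79 times for Tcf15, 4.71 times for Arl4d and 3.90 times for Unc93a2. In control E2/MPA it did so by 21.8 times for Cuzd1, 20.7 times for Nptx1, 20.6 times for Ms4a8a, 7.95 times for Arl4d, 4.16 times for Tcf15 and 3.34 times for Unc93a2. The median gene with no library at 0 had a ratio of 1.37 in cKO E2/MPA and 1.44 in control E2/MPA. Dividing each library by its summed epithelial markers could not narrow this where M12 or M16 was lowest. These libraries had the highest epithelial sum of their groups, so nothing is read from the divided values. The ratio for Ms4a8a became 35.5 in cKO and 27.7 in control, and that for Cuzd1 11.0 in cKO and 29.3 in control.

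**Figure D2:**
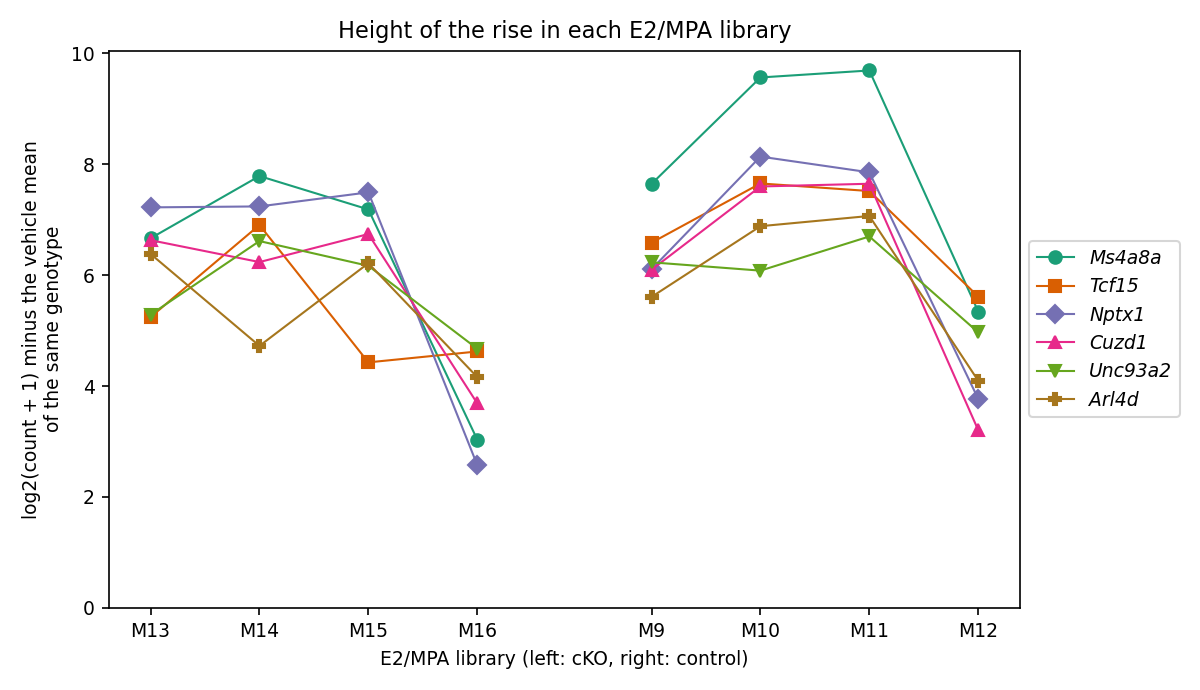
Log2(count + 1) of each E2/MPA library minus the mean of the 4 vehicle libraries of the same genotype, with cKO libraries on the left and control libraries on the right. M16 and M12 lie below the other libraries of their genotype for Ms4a8a, Nptx1 and Cuzd1, where the height over the vehicle mean was 3.03, 2.58 and 3.69 in M16 and 5.34, 3.77 and 3.21 in M12. The vehicle libraries M8 and M4 had the lowest values of these 3 genes in their genotype, so these heights are not the rise of a single culture.

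The levels of the 6 genes moved together over the 8 hormone libraries, with a Pearson correlation of log2(count + 1) between pairs of 0.42 to 0.98 and a median of 0.82. Ms4a8a and Nptx1 were the closest pair (0.98) and Tcf15 and Arl4d the least close (0.42). By rank, Cuzd1 and Arl4d were the closest, with a Spearman correlation of 0.976. The points share libraries, and with them the low values of M12 and M16. Genes outside the 6, found by a search over all genes tested, reached correlations as high, such as Xrcc1 with Nptx1 (0.989). The correlations are thus not shown to be particular to the 6. Over the same 8 libraries the stromal marker sum had a Pearson correlation of -0.89 with Cuzd1, -0.86 with Arl4d, -0.83 with Nptx1, -0.76 with Ms4a8a, -0.46 with Unc93a2 and -0.31 with Tcf15. The part of stromal cells in the height of the rise was not tested.

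The height reached under E2/MPA was then compared between genotypes, a contrast the selection did not use directly, although it used the E2/MPA values that enter it. Every one of the 6 genes had a lower mean in cKO than in control organoids. The cKO mean was 23.99% of the control mean for Ms4a8a, 28.2% for Tcf15, 33.1% for Nptx1, 45.2% for Unc93a2, 46.4% for Cuzd1 and 63.8% for Arl4d. The ranges of the groups overlapped for all 6 genes, against 2.35% of all genes tested with every control library above every cKO library. In limma's test over all genes none of the 6 was called at an adjusted p of 0.05, where 0.00606% of genes tested were called (1 gene, in the other direction). Of the 6, 1 gene (Tcf15) had an unadjusted p under 0.05, as did 10.9% of all genes tested. edgeR's quasi-likelihood test and DESeq2 on the recovered reads called none of the 6. Over all genes edgeR called 1, and DESeq2 called 185, of which 119 were higher and 66 lower in cKO. The median log2 difference was -1.42 over the 6 genes and -0.01 over all genes tested, of which 51.9% were lower in cKO. The selection can favour 1 genotype, so nothing is read from this median or from the shared direction.

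Tcf15 came nearest to a difference. It averaged 49.98 ± 46.5 in cKO E2/MPA and 177 ± 97.1 in control E2/MPA (SD, n = 4 each), a log2 difference of -1.97 (SE 0.53, 95% interval -3.11 to -0.83, limma adjusted p = 0.202). Of the 4 cKO libraries 3 lay below every control library, and M14, at 119, lay between M12 and M9. With limma's array weights, which count a library less the more it departs from its group, Tcf15 passed with a log2 difference of -2.31 (adjusted p = 0.0269), where 3.62% of all genes tested were called and 1.56% were called lower in cKO. Over all alternatives, including the leave-one-out fits, its adjusted p ran from 0.0269 to 0.589.

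Ms4a8a averaged 201 ± 151 in cKO E2/MPA and 839 ± 726 in control E2/MPA (SD, n = 4 each), a log2 difference of -2.01 (SE 0.99, 95% interval -4.13 to 0.11, adjusted p = 0.492). Unc93a2 averaged 108 ± 60.6 in cKO and 238 ± 103 in control, with a log2 difference of -1.20 (SE 0.73, 95% interval -2.77 to 0.36, adjusted p = 0.592). For both genes the interval reached from a fall of several fold to a small rise, so equal heights were not shown either. Nptx1 averaged 1161 ± 749 in cKO and 3507 ± 3015 in control, with an interval of -5.05 to 1.78 around -1.64 (adjusted p = 0.779). Cuzd1 averaged 5703 ± 3305 in cKO and 12291 ± 9855 in control, with an interval of -3.98 to 2.50 around -0.74 (adjusted p = 0.918). Arl4d averaged 211 ± 139 in cKO and 331 ± 233 in control, with an interval of -1.93 to 0.87 around -0.53 (adjusted p = 0.839).

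Leaving out M4, M8, M12 and M16, which had the highest stromal sums, left the cKO share of the control mean nearly where it was. That share was 24.1% for Ms4a8a, 27.4% for Tcf15, 33.5% for Nptx1, 45.4% for Unc93a2, 45.3% for Cuzd1 and 61.5% for Arl4d. The ranges of Tcf15 and Unc93a2 then no longer overlapped, as for 8.66% of all genes tested. None of the 6 passed limma's test without these libraries (adjusted p = 0.149 for Tcf15). Over all genes 9 were called in that fit, 4 higher and 5 lower in cKO. M9, a control E2/MPA library with a stromal sum of 17623, was kept. The cKO E2/MPA libraries kept, M13 to M15, had sums of 1908 to 3801. The part of stromal cells was therefore not removed, and it was not tested.

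Under vehicle the genotypes were compared first for Nptx1 and Cuzd1. The cKO mean was 13.5 ± 12.3 against 98.8 ± 122 in control for Nptx1, and 115 ± 87.0 against 384 ± 416 for Cuzd1 (SD, n = 4 each). The control means of Nptx1 and Cuzd1 came almost wholly from M2 and M3. Neither passed the test (limma adjusted p = 0.944 for Nptx1 and 0.984 for Cuzd1), and 0% of all genes tested did in limma. At an unadjusted p under 0.05, limma had 984 genes and none of the 6. At an adjusted p under 0.05, DESeq2 called 14 genes and edgeR 0. Unc93a2 averaged 1.27 ± 1.62 in cKO and 4.14 ± 4.43 in control, and Arl4d 3.51 ± 2.18 in cKO and 3.71 ± 2.91 in control (SD, n = 4 each). These means rested on few reads, 5 in cKO and 18 in control for Unc93a2, and 14 in cKO and 17 in control for Arl4d. Neither passed limma's test (adjusted p = 0.909 for Unc93a2 and 0.999 for Arl4d), and the scatter among libraries was wide. No fold is given for Ms4a8a and Tcf15, which were at the limit of detection in both genotypes.

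Whether the rise itself was smaller in cKO was tested as the interaction of genotype and hormone on the log2 scale. The rise was 6.17 in cKO and 8.06 in control for Ms4a8a, and 5.30 in cKO and 6.84 in control for Tcf15. The difference of the rises was -1.89 for Ms4a8a (SE 1.40, 95% interval -4.89 to 1.10) and -1.54 for Tcf15 (SE 0.75, 95% interval -3.15 to 0.07). The fitted rises of both depend on the pseudocount and the tool, because they start from almost no reads: with a pseudocount of 5 that of Tcf15 was 3.14 in cKO and 4.88 in control, and with edgeR 8.68 in cKO and 8.27 in control.

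For the other 4 genes the mean rises lay close together on the log2(count + 1) scale, but the intervals of their differences were wide. The ratio of group means was higher in cKO for Nptx1 (86.2 against 35.5 in control), Cuzd1 (49.6 against 32.0) and Unc93a2 (84.9 against 57.5). For Arl4d it was lower in cKO (60.2 against 89.3). The rises on the log2 scale follow. They were 6.13 in cKO and 6.47 in control for Nptx1, 5.82 in cKO and 6.14 in control for Cuzd1, 5.69 in cKO and 6.00 in control for Unc93a2, and 5.37 in cKO and 5.91 in control for Arl4d. The differences were -0.33 for Nptx1 (95% interval -5.17 to 4.50), -0.31 for Cuzd1 (-4.89 to 4.26), -0.31 for Unc93a2 (-2.52 to 1.90) and -0.54 for Arl4d (-2.52 to 1.44). The difference turned positive with edgeR for Tcf15, Nptx1, Cuzd1 and Unc93a2, and with DESeq2 for Nptx1, Cuzd1 and Unc93a2. In the interaction 0% of all genes tested were called by limma, with 309 genes at an unadjusted p under 0.05 and none of the 6 genes among them. edgeR and DESeq2 called 0 as well, and the adjusted p was 1.00 for each of the 6 genes.

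**Figure D3:**
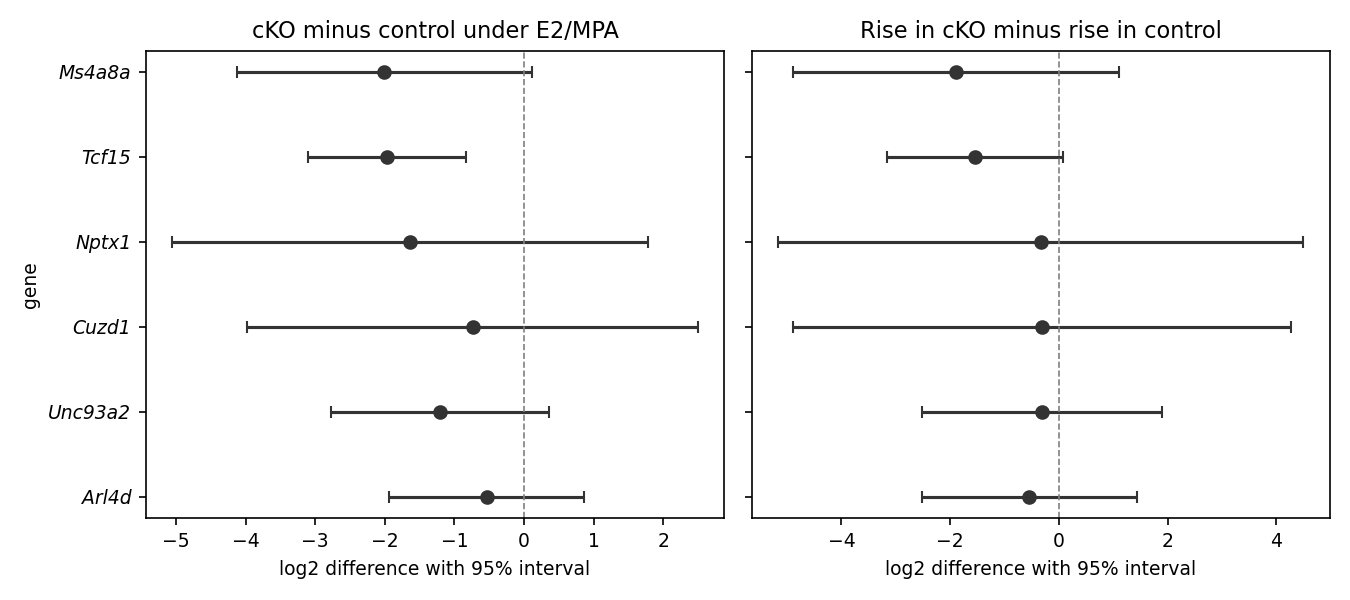
Log2 differences with 95% intervals from limma for cKO minus control under E2/MPA (left) and for the rise in cKO minus the rise in control (right). All 6 points lie below 0 in both panels in this fit, and on the right 4 of them (Tcf15, Nptx1, Cuzd1 and Unc93a2) turn positive with edgeR. On the left the interval of Tcf15, -3.11 to -0.83, is the only one that does not include 0, and its adjusted p is 0.202. On the right all intervals include 0.

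Levels were compared between the genes per kilobase of exon. Cuzd1 reached 2528 ± 1465 normalized counts per kilobase in cKO E2/MPA and 5448 ± 4368 in control E2/MPA, rank 292 and rank 112 from the top among 22486 genes. Nptx1 had 223 ± 144 in cKO E2/MPA and 672 ± 578 in control E2/MPA. Ms4a8a had 112 ± 84.1 in cKO E2/MPA and 467 ± 404 in control E2/MPA, and Arl4d 153 ± 101 in cKO and 239.5 ± 168 in control. Tcf15 had 51.0 ± 47.4 in cKO and 181 ± 99.1 in control. Unc93a2 was the lowest, with 36.5 ± 20.6 in cKO and 80.8 ± 34.9 in control (SD, n = 4 each). Ms4a8a and Arl4d changed places in the order between genotypes, and the gap between them was smaller than the spread of each in cKO, and in control smaller than that of Ms4a8a but not than that of Arl4d.

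Relatives of the 6 genes were examined next, from lists drawn up by family, although with earlier results of these data known. In limma, 4.19% of all genes tested were called for hormone in cKO (2.71% rose and 1.48% fell) and 8.9% in control (5.39% rose and 3.51% fell). The adjusted p-values that follow are limma's for E2/MPA minus vehicle. The median log2 change over all genes was 0.00 in both genotypes.

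In the UNC93 family, 1 of 3 genes rose in cKO and 2 of 3 in control. Unc93a, the close paralog, averaged 89.4 ± 46.8 in cKO E2/MPA and 2.95 ± 2.12 in cKO vehicle, a log2 change of 4.66 (adjusted p = 0.00514). In control organoids it averaged 98.2 ± 59.2 under E2/MPA and 6.08 ± 5.73 under vehicle, a log2 change of 4.10 (adjusted p = 0.00608). Its reads and those of Unc93a2 may be exchanged, because the transcripts share sequence. Mfsd11, a more distant relative, rose by 0.48 in control (adjusted p = 0.00718). The median change of the list was 0.27 in cKO and 0.48 in control.

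Of 8 genes of the ARL4 family, ARF GTPases and cytohesins, 1 rose in cKO, and 1 rose and 1 fell in control. Cyth1, a cytohesin that activates ARF GTPases, rose by 0.27 in cKO (adjusted p = 0.0484) and by 0.24 in control (adjusted p = 0.0494). Arl4c averaged 2956 ± 209.7 in control E2/MPA and 4044 ± 638 in control vehicle, a log2 change of -0.44 (adjusted p = 0.0428). Its change in cKO was -0.29 (adjusted p = 0.242). Arl4a changed by -0.35 in cKO (adjusted p = 0.378) and -0.32 in control (adjusted p = 0.356). Neither paralog rose with Arl4d, and the median of the list was 0.00 in cKO and -0.06 in control.

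Of 12 bHLH relatives, E proteins and Id proteins tested, none rose or fell in cKO and 1 rose in control. That gene was Tcf23, a bHLH factor of the uterus, with 84.8 ± 93.1 in control E2/MPA and 0.604 ± 0.767 in control vehicle (log2 change 4.73, adjusted p = 0.0117). In cKO it had 21.1 ± 32.7 under E2/MPA and no read under vehicle (log2 change 3.28, adjusted p = 0.0976). Scx, the closest relative of Tcf15, had 48.3 ± 5.12 in cKO E2/MPA and 78.3 ± 16.6 in cKO vehicle, and 57.4 ± 16.5 in control E2/MPA and 81.6 ± 20.3 in control vehicle. It did not pass in either genotype (adjusted p = 0.119 in cKO and 0.187 in control). The E proteins Tcf12 and Tcf3, the most abundant genes of the list, did not pass: the change of Tcf12 was -0.05 in cKO and -0.07 in control, and that of Tcf3 -0.44 in cKO and -0.43 in control.

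Of 17 MS4A genes, 7 besides Ms4a8a were in the table and 2 passed the filter on low values, of which none was called. Ms4a6d averaged 10.0 ± 7.57 in cKO E2/MPA and 2.10 ± 0.665 in cKO vehicle, and 45.6 ± 67.3 in control E2/MPA and 13.9 ± 24.4 in control vehicle. Ms4a4d averaged 11.4 ± 18.2 in cKO E2/MPA and 1.74 ± 2.79 in cKO vehicle, and 30.8 ± 31.4 in control E2/MPA and 3.81 ± 5.54 in control vehicle. None of 3 pentraxin and AMPA receptor genes tested was called. Nptx2 averaged 2.18 ± 2.63 in cKO E2/MPA and 2.39 ± 2.30 in cKO vehicle, and 1.97 ± 1.35 in control E2/MPA and 1.22 ± 1.95 in control vehicle. By the mean over all libraries the receptor Nptxr had the highest count of that list, with 285 ± 42.3 in cKO E2/MPA and 225 ± 26.1 in control E2/MPA, and the AMPA receptor subunit Gria3 the next highest, with 22.8 ± 32.2 in cKO E2/MPA and 58.4 ± 73.3 in control E2/MPA. Of 3 genes with a zona pellucida domain tested, Tecta fell by 1.98 in cKO (adjusted p = 0.0210) and by 1.68 in control (adjusted p = 0.0292), the direction opposite to that of Cuzd1. Tgfbr3, with the highest count of that list by the mean over all libraries, averaged 91.0 ± 129.5 in cKO E2/MPA and 173 ± 208 in control E2/MPA and was not called. Dmbt1 was at 1.95 ± 2.31 or less on average in every group.

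The hormone pathways themselves were covered by 4 lists, also drawn up with earlier results of these data known. Of 14 targets shared by the glucocorticoid and progesterone receptors, 9 rose and none fell in each genotype, with a median change of 1.37 in cKO and 1.65 in control. Zbtb16, a zinc finger factor, averaged 35.8 ± 18.0 in cKO E2/MPA with no read in cKO vehicle, and 66.8 ± 0.658 in control E2/MPA and 0.282 ± 0.564 in control vehicle (adjusted p = 4.75e-06 in cKO and 1.05e-06 in control). Sult1a1, a sulfotransferase, rose by 3.71 in cKO (adjusted p = 2.55e-05) and by 3.12 in control (adjusted p = 5.38e-05). Fkbp5, a co-chaperone of steroid receptors, rose by 2.99 in cKO (adjusted p = 0.000129) and by 3.07 in control (adjusted p = 5.75e-05). Tsc22d3, also called Gilz, rose by 2.85 in cKO (adjusted p = 4.79e-05) and by 2.16 in control (adjusted p = 0.000240).

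Of 11 progesterone-responsive epithelial genes, 2 rose and 1 fell in cKO, and 3 rose and 1 fell in control. Lrp2, an endocytic receptor, averaged 83.7 ± 58.1 in cKO E2/MPA and 2.66 ± 2.87 in cKO vehicle, and 895 ± 695 in control E2/MPA and 85.3 ± 79.8 in control vehicle. Its rise passed in both genotypes (adjusted p = 0.0152 in cKO and 0.0258 in control). Ihh, the epithelial hedgehog ligand, rose by 1.28 in cKO (adjusted p = 0.0178) and by 1.59 in control (adjusted p = 0.00285). Ptch1, the hedgehog receptor, fell by 0.32 in cKO (adjusted p = 0.0114) and by 0.31 in control (adjusted p = 0.00748). Alox15, a lipoxygenase, rose by 2.67 in control (adjusted p = 0.00718), and its change in cKO was 1.25 (adjusted p = 0.233). The interaction of Alox15 was not called (adjusted p = 1.00). Of 10 estrogen-responsive genes, Greb1 and Lcn2 rose in both genotypes and none fell. Greb1, an estrogen receptor cofactor, rose by 1.06 in cKO and 1.24 in control, and Lcn2, the secreted iron-siderophore carrier, by 1.82 in cKO and 1.32 in control. Of 5 steroid receptors, Pgr fell by 0.99 in cKO (adjusted p = 0.00850) and by 1.44 in control (adjusted p = 0.000380), and Nr3c2 fell by 1.84 in control (adjusted p = 0.000605). The change of Nr3c2 in cKO was -0.97 (adjusted p = 0.0505). None of these genes passed the genotype test under E2/MPA.

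For each of the 6 genes the genes most like it were listed by the Pearson correlation of log2(count + 1). The points share libraries and the hormone contrast. Over all 16 libraries the 3 most like Cuzd1 were Stat5a (0.985), Rbm20 (0.983) and Acss1 (0.980). Those of Nptx1 were Upk1a (0.987), Klk1b21 (0.981) and Adam33 (0.980). For Ms4a8a they were Greb1 (0.980), Isg20 (0.979) and Rcl1 (0.979), and for Tcf15 Scnn1a (0.982), Abcb5 (0.982) and Fasn (0.978). Unc93a2 was closest to Ly6f (0.981), Mme (0.976) and Tceal9 (0.971), and Arl4d to Abcb5 (0.978), Coro2a (0.973) and Ldhd (0.971). Abcb5, a transporter of the ABC family, is the one gene on 2 of these lists. It averaged 443 ± 283 in cKO E2/MPA and 1551 ± 1137 in control E2/MPA, with no read in any vehicle library.

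Over the 8 hormone libraries alone, Cuzd1 had 1 gene in common with its list over all 16 and the other 5 genes had 0. That gene was Stat5a, here at 0.998, followed by its close relative Stat5b (0.994) and Gjb1 (0.994). The 8 libraries are part of the 16, so the 2 lists are not independent. Stat5a averaged 3370.1 ± 967 in cKO E2/MPA and 1204 ± 391 in cKO vehicle, and 4364 ± 1970.0 in control E2/MPA and 1604 ± 1042 in control vehicle. Its hormone change was not called in either genotype (adjusted p = 0.115 in cKO and 0.0653 in control). Like Cuzd1, it was lowest in the libraries with high stromal markers, and its correlation with the stromal sum over the 8 hormone libraries was -0.88.

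Ms4a8a was then closest to Klk1b21 (0.994), Klk1b27 (0.993) and Calb1 (0.992). The counts of both kallikreins are uncertain, since close copies in that gene family share sequence. Klk1b21 averaged 587 ± 568 in cKO E2/MPA and 2743 ± 2626 in control E2/MPA, and Calb1, a calcium-binding protein of the luminal epithelium, 211 ± 229 in cKO E2/MPA and 1219 ± 1175 in control E2/MPA. Nptx1 was closest to Klkb1 (0.989), Xrcc1 (0.989) and Trpc5os (0.988). Tcf15 was closest to Slc39a14 (0.981), Ldhc (0.974) and Pank1 (0.973). Unc93a2 was closest to Lyrm9 (0.987), Fam129c (0.983) and Cd46 (0.975), and Arl4d to Mylip (0.990), Brap (0.986) and Gorasp1 (0.984). Each list was searched over all genes tested, and 8 points give a correlation little precision.

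**Figure D4:**
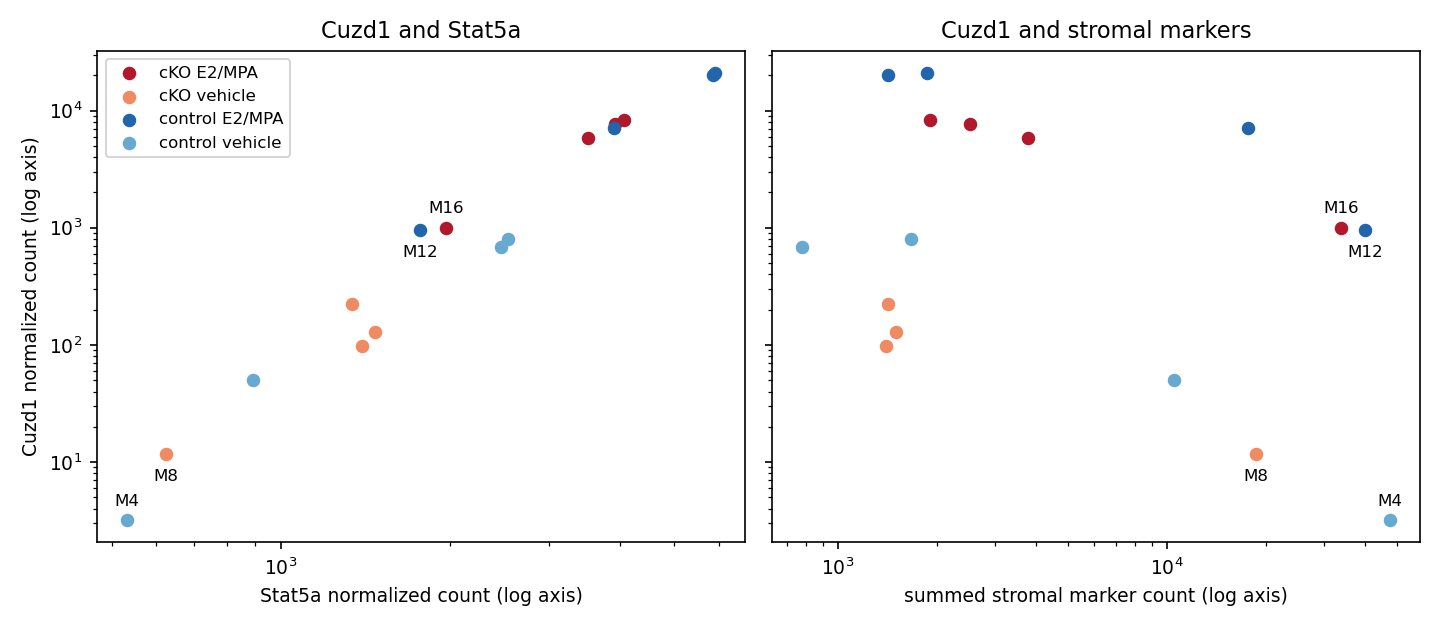
Cuzd1 normalized counts against Stat5a normalized counts (left) and against the summed stromal markers (right), both on log axes. Each point is 1 of 16 libraries, and M16, M8, M12 and M4 are labelled. Cuzd1 and Stat5a lie along a line with a correlation of 0.985, and the 4 labelled libraries lie at high stromal sums and have the lowest Cuzd1 of their groups.

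Genes next to the 6 were taken from the RefSeq gene order of GRCm38.p6, 2 protein-coding genes on each side. Ttll2, beside Unc93a2, averaged 9.04 in cKO E2/MPA and 0.210 in cKO vehicle, and 14.2 in control E2/MPA and 0.409 in control vehicle. Its log2 change was 2.91 in cKO (adjusted p = 0.00685) and 3.42 in control (adjusted p = 0.00140), at low counts. Also beside Unc93a2, Fndc1 did not pass (adjusted p = 0.895 in cKO and 0.807 in control). Nor did Tagap (adjusted p = 0.615 in cKO and 0.295 in control), and Tcp10a was not tested. Beside Tcf15, Tbc1d20 rose by 0.23 in cKO (adjusted p = 0.0398) and by 0.27 in control (adjusted p = 0.00873), and Srxn1 rose by 0.97 in control (adjusted p = 0.00318). Csnk2a1, also beside Tcf15, changed by 0.02 in cKO and -0.06 in control. The neighbours of Nptx1 (Rnf213, Endov, Rptor and Chmp6) and those of Arl4d in the table (Rdm1, Dhx8 and Etv4) did not pass in either genotype. Rptor came nearest, with 0.54 in control (adjusted p = 0.0549). Cuzd1 lies within the span of Fgfr2 on the same strand but shares no exon base with it. The neighbours of Cuzd1 in the table, Fam24b and Fam24a, averaged at most 7.42 and 9.50 in any group and were not tested.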

How the data were processed

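Per the submitters' processing notes, reads were processed with HISAT2, featureCounts and DESeq2 on mouse build GRCm39. The sources used here give neither versions nor the strand setting. What the authors deposited is 1 table, 23306 genes by 16 libraries, in which each value is a signal: the gene's read count over a library-wide size factor. Undoing the factor returned whole reads, within 0.01 read, for every value. GENCODE M21 gave a symbol to 22484 of the genes by Ensembl identifier. Promoter windows and gene order came from RefSeq on GRCm38.p6, another build than that of the table.

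Tests covered the 16509 genes that reached 10 in 4 or more libraries, and 6797 others were dropped. All 6 described genes passed, through their E2/MPA libraries. Values were taken as log2(value + 1), which understates the change of low genes. One limma model (version 3.58.1, under R 4.3.3) was fitted to all libraries with a group mean each and a trended variance prior. Its tests were two-sided, with Benjamini-Hochberg adjustment over all genes tested and a threshold of 0.05. The fit was tested on simulated counts. Library pairs of a group differed by more than counting noise (lowest chi-square per degree of freedom 6.96). Counting intervals are exact and cover counting error only. edgeR (4.0.16) and DESeq2 (1.42.0) were run on the recovered reads.

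The 6 genes, the lists, the tests and the alternatives were chosen with earlier results of these data known. The genes named are the 6, their closest paralogs (Unc93a, Arl4a, Arl4c, Nptx2, Scx and Dmbt1), and of each list up to 4 members past the threshold, by lowest adjusted p. A list with fewer than 2 such members is represented by its 2 genes of highest mean. The 3 genes most like each of the 6 and the nearest 2 protein-coding neighbours on each side are also named. Tgfbr2 and the marker genes serve as context.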

Additional observations from a re-analysis of the deposited data

Results flagged for a closer look

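Values of 48 groups of 4 libraries were screened for a sample far from the others, and 8 were marked. The cutoff marks about 1 in 20 groups if they are independent and normally distributed. These groups share libraries and hold skewed counts, and Tcf15 in cKO vehicle was 0 throughout and could not be marked. The 8 are therefore not weighed against chance. Among the described genes, Tcf15 in cKO E2/MPA was 119 in M14, far above the other 3 libraries, and Arl4d in cKO vehicle was 6.78 in M7. That Arl4d value is near the floor, at 6 reads beside 2 in M5, 3 in M6 and 3 in M8. Stat5a in cKO vehicle was low in M8, at 623. The stromal marker sum was far above the rest of its group in M8 (18643) and in M16 (33913), and its part in the values of these libraries was not tested. The macrophage marker sum was far above the rest in M12 (20408) and M4 (15166) and low in M8 (1918). No gene of the 6 passed the test for a rise that differs between genotypes.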

How the results depend on the processing

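Under 12 alternatives, and on leaving out each of 16 libraries in turn, the genotype effect under E2/MPA kept its direction for all 6 genes, and only Tcf15 changed its call, with array weights. The number of genes called for that effect, 1, became 185 with DESeq2, 597 with array weights, 9 without M4, M8, M12 and M16, 0 with only the groups compared, and 0 to 10 on leaving out 1 library (10 without M12). For genotype under vehicle the count of 0 became 2 with a stricter filter, 14 with DESeq2, 5 with array weights, 1 with a block, 14 without those 4 libraries, and 0 to 2 on leaving out 1. The hormone count in cKO, 692, became 1255 with DESeq2, 1678 with array weights, 3098 with a block and 362 to 703 on leaving out 1, and was below 692 by over 1.5 times without M5, M7, M8, M13, M14 or M15. In control, 1469 became 2549 with array weights, 4479 with a block, 2210 without the 4 libraries, 484 with only the groups compared and 759 to 2230 on leaving out 1 (2230 without M12). The block joined libraries 8 numbers apart, whose deviations correlated at 0.386 to 0.746. No label gives that pairing, and it changed no call among the 6 genes. With that pairing, chosen for single libraries after seeing the data, the rise over the vehicle library 8 numbers below was 6.30 in M16 and 7.84 in M12 for Cuzd1, 4.95 in M16 and 7.48 in M12 for Nptx1, and 3.80 in M16 and 6.22 in M12 for Ms4a8a. Over the vehicle mean those of Cuzd1 were 3.69 in M16 and 3.21 in M12. With the pairing no other control library exceeded M12 for Cuzd1, and M13 had 6.28, close to M16. For Nptx1, M9 (8.37) exceeded M12. M16 stayed the lowest cKO library for Nptx1 and Ms4a8a, and M12 stayed the lowest control library for Ms4a8a.

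The interaction turned positive with edgeR for Tcf15 (0.41), Nptx1 (1.22), Cuzd1 (0.63) and Unc93a2 (0.52), with DESeq2 for Nptx1 (1.27), Cuzd1 (0.63) and Unc93a2 (0.60), with array weights for Nptx1 (0.31), Cuzd1 (0.085) and Unc93a2 (0.070), and without the 4 libraries for Nptx1 (0.40) and Cuzd1 (0.10). On leaving out 1 library it ran from -1.48 to 0.90 for Nptx1, -1.29 to 1.23 for Cuzd1 and -0.82 to 0.29 for Unc93a2. Under vehicle the genotype effect ran from -1.97 to 0.55 for Cuzd1 and -0.29 to 0.38 for Arl4d, which was -0.011 with a pseudocount of 5, -0.16 with edgeR and -0.13 with DESeq2. The cause was not tested. The fitted rise, 6.17 in cKO and 8.06 in control for Ms4a8a, was 4.52 in cKO and 6.40 in control with a pseudocount of 5, 7.89 in cKO and 9.66 in control with edgeR, and 8.09 in cKO and 9.81 in control with DESeq2. That of Tcf15 was 3.14 in cKO and 4.88 in control with a pseudocount of 5, 6.28 in cKO with one of 0.5, 8.68 in cKO and 8.27 in control with edgeR, and 8.13 in cKO and 8.61 in control with DESeq2. With a pseudocount of 5 the cKO rise was 4.03 for Unc93a2 and 4.42 for Arl4d. Depth limits the vehicle levels of Ms4a8a and Tcf15, and 4 libraries per group with wide spread limit every genotype comparison.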
